A study of Mus musculus with 6 samples.

Results

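The 7 genes described here, Grin1, Grin2a, Grin2b, Grin2c, Grin2d, Grin3a and Grin3b, encode the subunits of the NMDA receptor, a glutamate-gated ion channel. They were taken by symbol from count files that list 54658 genes, and each was found once in every file. The RNA came from nucleus accumbens, a ventral striatal region, of male C57BL6 mice bought at 8 weeks of age. The Gas5 group of 3 libraries came from tissue injected with a herpes simplex p1005+ vector that carries the long noncoding RNA Gas5 with EGFP. The GFP group of 3 libraries came from tissue injected with the same type of vector carrying EGFP alone, so every sample had received virus and no uninjected tissue was analysed here. The series title places the comparison in work on cocaine action, but the labels list no drug exposure. They also do not give the time after injection or the cells that took up the vector, nor whether mice were pooled. The p-values below therefore measure the spread between these samples.

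An NMDA receptor is built around the obligatory subunit GluN1, the product of Grin1, which binds the co-agonists glycine and D-serine. It is completed by GluN2 subunits, from Grin2a to Grin2d, which bind glutamate and set the speed and magnesium block of the channel, or by GluN3 subunits, from Grin3a and Grin3b, which bind glycine and lower calcium entry. The receptor opens when glutamate arrives at a depolarised membrane, and the calcium it admits starts lasting changes in synaptic strength. In the accumbens, the principal cells are medium spiny neurons, which receive glutamate from cortex, hippocampus, amygdala and thalamus, and these synapses are widely studied in responses to drugs of abuse.

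The kinship of the genes shows in the stretch of 27 coding bases that encodes a conserved motif of the third membrane segment, which lines the channel. It is printed for 5 of the 7 genes to show how far they share sequence, and because in Grin1 it lies where no reads were counted. Each line runs 5′ to 3′ along the coding strand, with capitals for bases that differ from Grin1.
Grin1: tcctacactgccaacctggcagccttc
Grin2a: AGTtacacAgccaacctggcTgccttc
Grin2c: AGctacacGgccaaTctggcagccttc
Grin3a: AcAtacacAgcGaacTtggcTgcTGtc
Grin3b: AGTtacacAgccaacctggcagcTGtc
The sequences were read from GENCODE M21 transcripts on GRCm38. Of these, Grin2c is nearest to Grin1 with 23 identical bases, Grin2a has 22, Grin3b 21 and Grin3a 19. In Grin1 the stretch lies in exon 15 at chr2:25297199-25297225 on the minus strand, and in Grin2a in exon 8 at chr16:9653447-9653473, also on the minus strand. In Grin2c it lies in exon 9 at chr11:115253749-115253775 and in Grin3a in exon 3 at chr4:49770470-49770496, both on the minus strand, and in Grin3b in exon 3 at chr10:79974636-79974662 on the plus strand.

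All 27 bases of the Grin1 stretch fall in a part of the gene that yielded no counts. The deposited counts cover the whole span of each gene, introns included, and hold none of the reads from a span that listed genes share. Of genes over 500 bases covered whole by others, 0 of 3304 on the same strand and 0 of 4191 on the opposite strand had a count, against 67.5% of 23119 genes with no overlap. Grin1 spans 28.0 kb on chromosome 2, from 25291181 to 25319187 on the minus strand, and shares 27.5% of it, including 28.5% of its exon bases, with the opposite-strand gene Grin1os, which had 0 counts in each library. Grin1 is therefore measured mainly on the 5′ part of the gene. Grin2d, at 45831883 to 45878378 on chromosome 7, minus strand, shares 40.8% of its exon bases, in part with Kdelr1. Grin3b, at 79970715 to 79977190 on chromosome 10, plus strand, shares 32.1% with Tmem259. The remaining genes lose less: Grin2b, at 135713233 to 136173511 on chromosome 6, shares 7.32% of its exon bases and Grin2c, at 115249169 to 115267243 on chromosome 11, shares 1.81%. Grin2a, at 9567898 to 9995560 on chromosome 16, and Grin3a, at 49661611 to 49845744 on chromosome 4, share no exon base, and these 4 genes are on the minus strand.

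**Figure D1:**
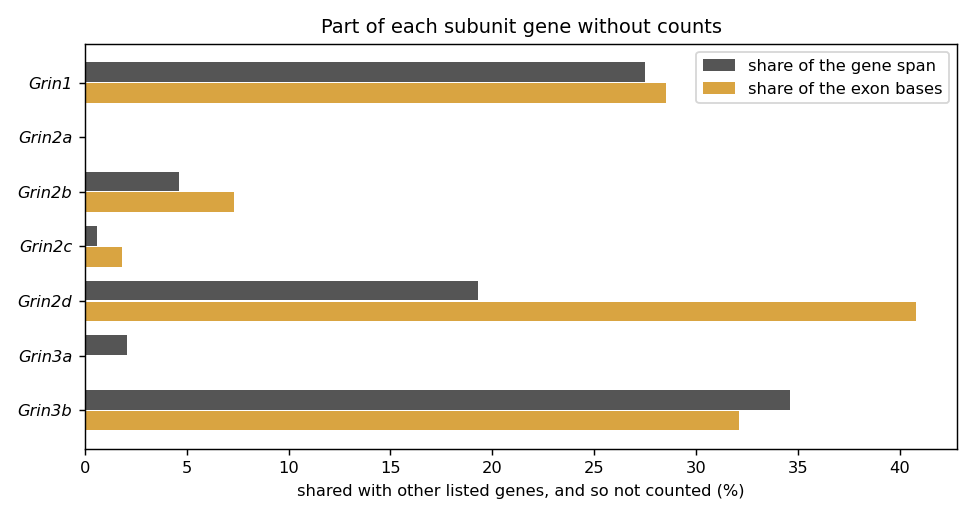
Percent of the gene span (grey) and of the exon bases (yellow) of each subunit gene that lies under other listed genes and so gave no counts. Grin2d loses the largest part of its exon bases, 40.8%, whereas Grin2a shares nothing.

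Library totals ranged from 38605056 to 42524874 counts in the Gas5 group and from 32359052 to 56081575 in the GFP group. Gas5 itself, the check of the labels, stood at 23.2 ± 0.545 CPM (TMM-scaled counts, per 1e6 counts) in Gas5 libraries and 17.8 ± 1.15 CPM in GFP libraries (SD, n = 3 each). Its log2 fold change was 0.38 with an edgeR adjusted p of 0.0163, which was 0.0727 without GFP B and 0.0677 without GFP C. Other listed genes share 26.6% of the Gas5 span and 21.8% of its exon bases, so it too was counted in part. These counts do not separate vector from native Gas5 RNA. Markers of the labelled tissue were present: the 12 medium spiny neuron markers summed to 5183 to 6954 CPM in Gas5 libraries and 6190 to 6982 CPM in GFP libraries, with 0 of 12 called by edgeR. The 11 markers of cortical excitatory neurons stood apart between the groups, with 8 lower and 0 higher, a median log2 fold change of -2.62 and sums of 189 to 247 CPM in Gas5 libraries and 413 to 554 CPM in GFP libraries, with none of the 11 at 0. Most of the sum in each Gas5 library came from Cux2, Rorb and Lamp5, at log2 fold changes of -0.01, -0.45 and 0.10. The sums therefore understate the difference in the other cortical markers. The mean log2 CPM of the 11, called the cortical marker score below, in libraries A, B and C was 1.38, 2.34 and 2.58 for Gas5, below the 3.72, 4.26 and 4.31 for GFP. Oligodendrocyte markers also stood apart, with sums of 1577 to 2001 CPM in Gas5 libraries and 2045 to 2223 CPM in GFP libraries and 1 of 8, Aspa, called lower. The endothelial sum did so as well, at 177 to 188 CPM in Gas5 libraries and 194 to 204 CPM in GFP libraries. Of 5 markers 1, Flt1, was called lower. That separation lay in Flt1 and Slco1a4, at log2 fold changes of -0.20 and -0.18. Cldn5, Pecam1 and Ly6c1 overlapped between the groups, at 0.01, 0.02 and 0.13, and the list median was 0.01. Microglial sums were higher in Gas5 libraries, at 244 to 263 CPM, than in GFP libraries, at 217 to 238 CPM. Of these markers 0 of 6 tested were called by edgeR, and P2ry12, covered whole by other genes, was at 0. The part of these cell types in the results below was not tested. In such bulk tissue, fewer cells of a type and less RNA per cell cannot be told apart.

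None of the 7 subunit genes passed the test between the groups. With edgeR's quasi-likelihood test, adjusted over all 17563 tested genes at a threshold of 0.05, 0 of 7 were called, with adjusted p between 0.124 and 0.836, whereas 5.44% of all tested genes were called, 3.96% lower and 1.48% higher in the Gas5 group. At an unadjusted p under 0.05 there were 3 of 7 members, against 21.4% of all tested genes, and limma-voom called 0 while DESeq2 called 1, Grin2c. All 7 passed the filter on low counts. The log2 fold change was negative for 6 of 7, with a median of -0.16, beside 0.02 over all tested genes, of which 45.8% were negative. The groups did not overlap for 3 of 7, Grin2b, Grin2c and Grin3b, each lower in Gas5 libraries, against 27.7% of all tested genes. Together the 7 genes held 2345, 2951 and 2758 CPM in Gas5 A, B and C, compared with 2926, 3211 and 3201 CPM in GFP A, B and C, so that Gas5 B lay just above GFP A.

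**Figure D2:**
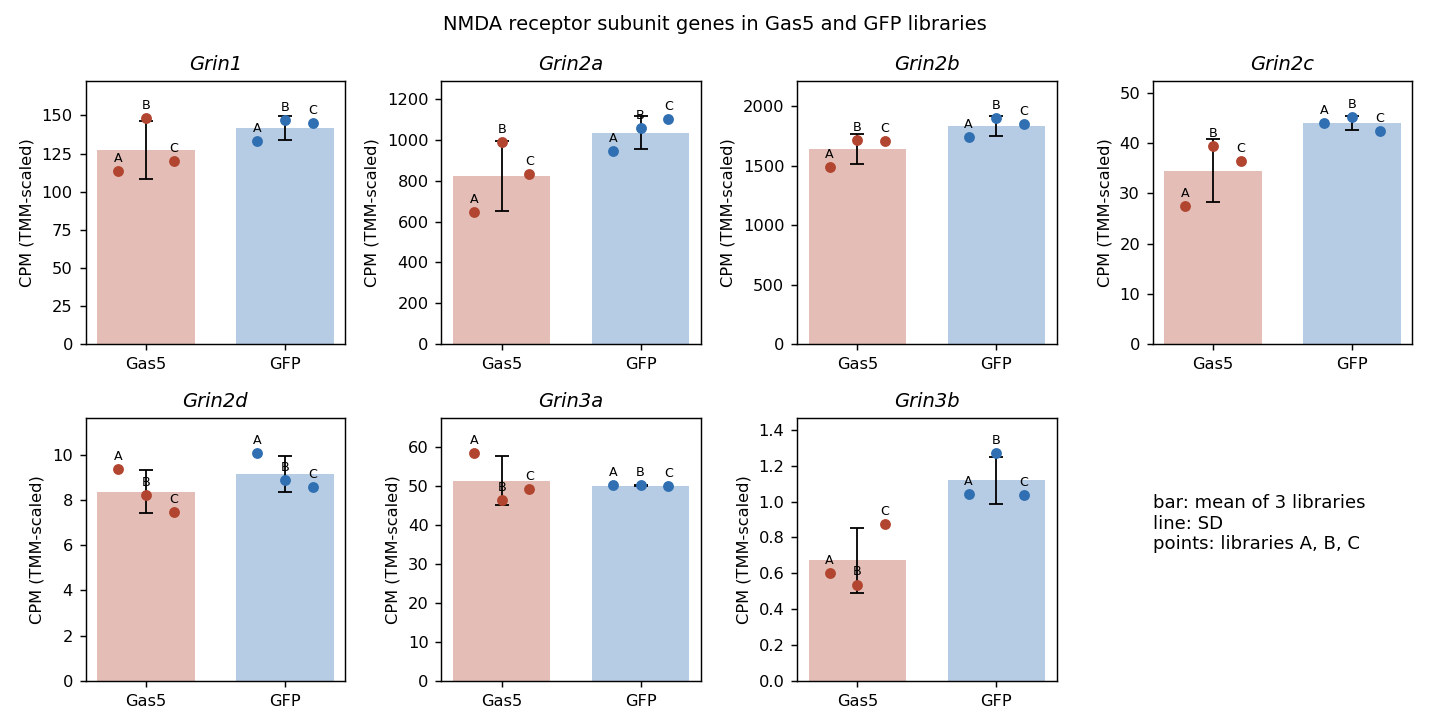
CPM of each subunit gene (vertical axis, linear, from 0) in Gas5 and GFP libraries, with bars for means, lines for SD and points for libraries A, B and C (n = 3 per group). Gas5 A is the lowest library for Grin1, Grin2a, Grin2b and Grin2c, and the highest for Grin3a, at 58.5 CPM.

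Grin1, whose product every functional receptor contains, had 113, 149 and 120.0 CPM in Gas5 A, B and C, compared with 133, 147 and 145 CPM in GFP A, B and C. Gas5 B was the highest of the 6 libraries and Gas5 A the lowest, so the groups overlapped. The means were 127 ± 18.8 CPM in the Gas5 group and 142 ± 7.68 CPM in the GFP group (SD, n = 3 each). The fold change on the log2 scale was -0.15 ± 0.0966 (standard error), its 95% interval ran from -0.37 to 0.07, and the edgeR adjusted p was 0.405. Without Gas5 B, edgeR called the gene, at -0.28 with an adjusted p of 0.0427, in a range of 0.0427 to 0.996 over the 15 alternatives run. This holds for the counted part of the gene.

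The GluN2 genes held most of the reads. Grin2b, the GluN2 subunit that prevails in the developing forebrain and persists in the adult striatum, is on its own 57.9% to 63.6% of the counts of the 7 genes. That share depends on length, since its counted span is 439 kb, introns included, against 20.3 kb for Grin1. Per kb of that span, averaged over the 6 libraries, Grin1 was higher, at 6.63 against 3.95 CPM. Grin2b had 1491, 1719 and 1709 CPM in Gas5 A, B and C, compared with 1744, 1903 and 1852 CPM in GFP A, B and C. All 3 Gas5 libraries lay below all 3 GFP libraries, but Gas5 B and GFP A stood close together. The fold change on the log2 scale was -0.16 ± 0.0775 (standard error), its 95% interval ran from -0.34 to 0.02, and the edgeR adjusted p was 0.277.

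Grin2a, whose product joins the receptor as synapses mature, varied widely among Gas5 libraries. It had 645, 988 and 835 CPM in Gas5 A, B and C, compared with 945, 1056 and 1102 CPM in GFP A, B and C. Gas5 A was far below the rest, whereas Gas5 B exceeded GFP A. The fold change on the log2 scale was -0.33 ± 0.140 (standard error), with an edgeR adjusted p of 0.217. None of the 15 alternatives passed the threshold. The adjusted p was 0.996 in edgeR with the cortical marker score covariate and 0.0571 to 0.465 in the other 14. Without Gas5 A the log2 fold change was -0.19. Relative to Grin2b and per kb of counted span, Grin2a stood in libraries A, B and C at a ratio of 0.444, 0.590 and 0.502 under Gas5, compared with 0.556, 0.570 and 0.611 under GFP. This ratio does not depend on library scaling. The groups overlapped in it, with means of 0.512 ± 0.0735 in Gas5 libraries and 0.579 ± 0.0286 in GFP libraries (SD, n = 3 each), and the difference was not tested.

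**Figure D3:**
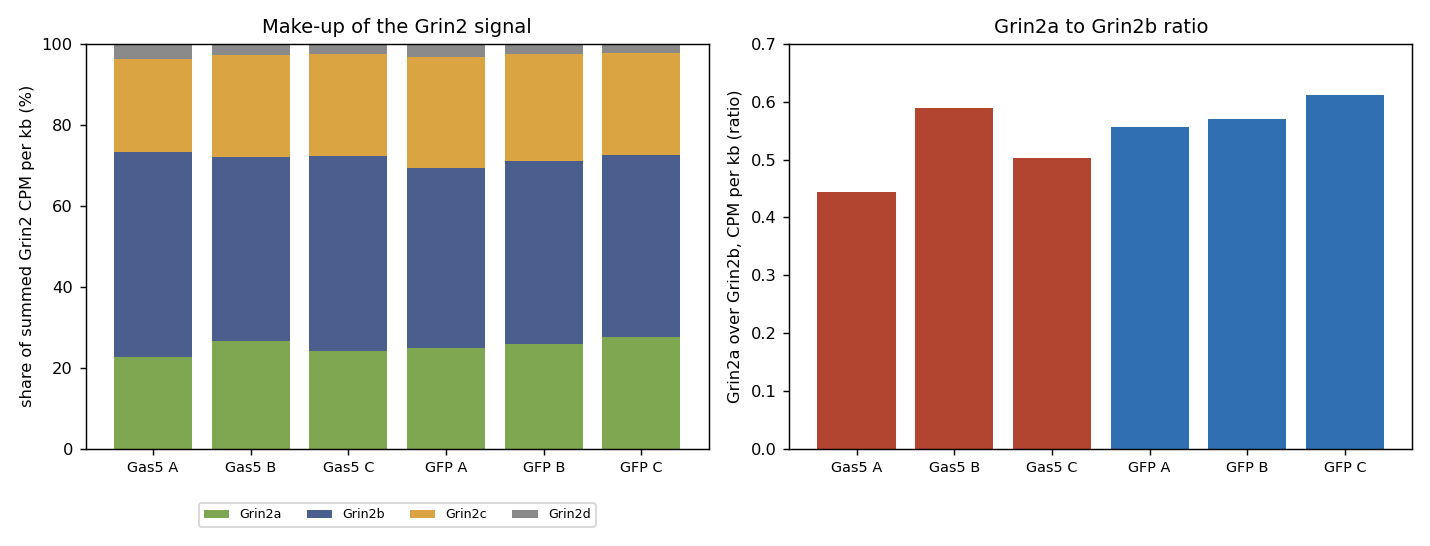
Left, share of each GluN2 gene in their summed CPM per kb of counted span, by library. Right, ratio of Grin2a to Grin2b on the same scale, Gas5 libraries in red and GFP libraries in blue. Grin2b makes up 44.6% to 50.8% in every library, and the ratio is lowest, 0.444, in Gas5 A.

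Grin2c, known from cerebellar granule cells and, in the forebrain, from astrocytes, was the member nearest to the threshold. It had 27.5, 39.4 and 36.5 CPM in Gas5 A, B and C, compared with 44.0, 45.2 and 42.4 CPM in GFP A, B and C. The GFP libraries were tight and all above the Gas5 libraries. The means were 34.5 ± 6.23 CPM in the Gas5 group and 43.9 ± 1.40 CPM in the GFP group (SD, n = 3 each). The log2 fold change was -0.35, or 1.27-fold lower in the Gas5 group, with a standard error of 0.115, a 95% interval of -0.61 to -0.09 and an edgeR adjusted p of 0.124. DESeq2 called it, with an adjusted p of 0.0454, as did edgeR without a filter on low counts, at 0.0345. Of the 15 alternatives, edgeR with the cortical marker score covariate gave 0.996, and the other 14 gave 0.0345 to 0.316. Without Gas5 A the log2 fold change was -0.22. Of 8 astrocyte markers, 7 were tested and 1, the water channel gene Aqp4, was called, higher, with a median log2 fold change of 0.28. Those markers summed to 3302 to 3973 CPM in Gas5 libraries and 3714 to 3981 CPM in GFP libraries. Gfap, a defining astrocyte marker, is listed at 0 in all 6 libraries, and other genes cover 100.0% of its span. The 4 cerebellar granule cell markers summed to at most 0.441 CPM in any library, with Neurod1, also covered whole, at 0. The part of astrocytes in the Grin2c values was not tested.

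Grin2d, whose product forms slowly closing receptors and is known from interneurons and subcortical nuclei, had 9.37, 8.23 and 7.48 CPM in Gas5 A, B and C, compared with 10.1, 8.87 and 8.56 CPM in GFP A, B and C. The groups overlapped, with a log2 fold change of -0.14, a standard error of 0.106, a 95% interval of -0.38 to 0.11 and an edgeR adjusted p of 0.504. Beside it, 10 interneuron markers summed to 389 to 444 CPM in Gas5 libraries and 405 to 428 CPM in GFP libraries, with 1 lower and 0 higher among the 10 and none at 0. Most of that sum was Gad1, at 323 to 370 CPM in Gas5 libraries and 331 to 351 CPM in GFP libraries, a gene of GABA synthesis that medium spiny neurons also express, so the sum is not a level of interneurons. The member called was Vip, which encodes a peptide of cortical interneurons, at -1.47 on the log2 scale (edgeR adjusted p = 0.0218). The part of interneurons in the Grin2d values was not tested.

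The GluN3 genes differed from each other in how they varied. Grin3a, whose product is best known for restraining synapse maturation, had 58.5, 46.4 and 49.3 CPM in Gas5 A, B and C, compared with 50.2, 50.3 and 49.99 CPM in GFP A, B and C. The GFP libraries were nearly equal, and the Gas5 libraries lay on both sides of them. Its log2 fold change, 0.04 ± 0.0798 (standard error), had a 95% interval of -0.15 to 0.22, and the edgeR adjusted p was 0.836. It was the 1 member with a positive value, which was -0.07 without Gas5 A.

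Grin3b, known mainly from motor neurons, was close to the lower limit of measurement, with 26, 23 and 34 raw counts in the Gas5 libraries A, B and C, compared with 58, 49 and 33 raw counts in the GFP ones. In CPM these were 0.603, 0.538 and 0.877 in Gas5 libraries and 1.04, 1.27 and 1.04 in GFP libraries, with no overlap. The log2 fold change was -0.74, the largest in size of the 7, with a standard error of 0.245 and a 95% interval of -1.3 to -0.18. The edgeR adjusted p was 0.127. Of the 15 alternatives, edgeR with the cortical marker score covariate gave 0.996, and the other 14 gave 0.0746 to 0.349. Counts this low limit the precision of its values.

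**Figure D4:**
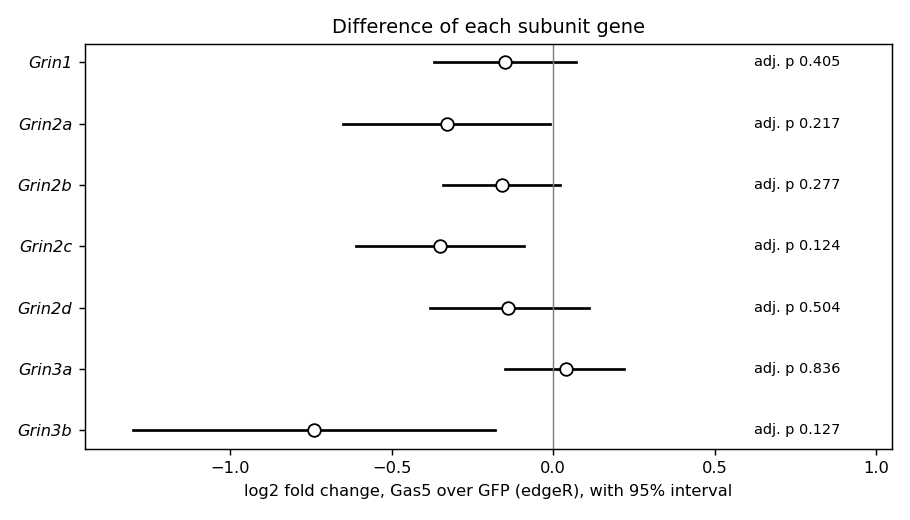
Log2 fold change of each subunit gene, Gas5 over GFP, with its 95% interval and edgeR adjusted p (n = 3 libraries per group). The intervals of Grin2a, Grin2c and Grin3b lie below 0 before adjustment, and no adjusted p is under 0.05.

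Levels between the genes can be set side by side only per length. As CPM per kb of counted span, averaged over the 6 libraries, Grin1 was highest at 6.63, followed by Grin2b at 3.95, Grin2c at 2.18, Grin2a at 2.17, Grin3a at 0.282, Grin2d at 0.234 and Grin3b at 0.212. The library ranges of Grin2c and Grin2a overlapped, at 1.53 to 2.52 and 1.51 to 2.58, so their order is not resolved. Grin3a, at 0.257 to 0.325, also overlapped with Grin2d, at 0.200 to 0.269, and Grin2d with Grin3b, at 0.127 to 0.300. Introns enter these values, and exons make up 34.1% of the counted span of Grin1 and 27.5% of that of Grin2c, but 5.24% for Grin2b and 4.19% for Grin2a. An order by spliced transcript cannot be read from them. In the sum of the 4 GluN2 genes on this scale, the groups overlapped for each gene's share. Grin2a held 22.6% to 26.7% in Gas5 libraries and 24.8% to 27.5% in GFP libraries, and Grin2b 45.3% to 50.8% in Gas5 libraries and 44.6% to 45.4% in GFP libraries. Grin2c held 22.9% to 25.4% in Gas5 libraries and 25.2% to 27.5% in GFP libraries, and Grin2d 2.47% to 3.74% in Gas5 libraries and 2.43% to 3.02% in GFP libraries.

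Across libraries, 4 members shared their lowest point. Grin1, Grin2a, Grin2b and Grin2c were all lowest in Gas5 A, at -0.24, -0.50, -0.22 and -0.48 on the log2 scale relative to each gene's mean over the 6 libraries. In the same library Grin3a was at 0.21, its highest, and Grin2d at 0.10. The share of all tested genes that were lowest in Gas5 A was not taken. The shared low point is thus not shown to be particular to these members. Gas5 A was at an extreme in other measures too. It had the lowest cortical marker score. Its summed markers were lowest for medium spiny neurons (5183 CPM), interneurons (389 CPM), astrocytes (3302 CPM) and oligodendrocytes (1577 CPM). Endothelial markers, at 177 CPM, were level with those of Gas5 B. Within the astrocyte sum, Slc1a2 (1974 CPM) and Slc4a4 (651.5 CPM) were lowest in Gas5 A. Aqp4, Slc1a3, Aldh1l1 and Gja1 were instead highest there, at 67.95, 291.7, 39.59 and 99.24 CPM. Its mitochondrial share of counts was the highest, 2.52%, in a range that began at 2.05%, but GFP A was close to it at 2.48%. The part of these measures in the low values of the 4 members was not tested. With the cortical score as a covariate, edgeR gave log2 fold changes of 0.22 for Grin1, 0.46 for Grin2a, 0.20 for Grin2b, 0.24 for Grin2c, -0.69 for Grin2d, -0.36 for Grin3a and -0.18 for Grin3b, each with an adjusted p of 0.996. That score separates the groups, so its part and that of the vector in these values cannot be told apart.

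The promoters of Grin1 and Grin2c are shown as the pair with RefSeq entries (GRCm38.p6) among the 4 members that were lowest in Gas5 A. Each is 300 bases long, lies mostly upstream of the annotated start, and has capitals for matches to the GC box GGGCGG or the Egr site GCGGGGGCG, searched on both strands with the cAMP response element TGACGTCA.
Grin1, chr2:25319138-25319437, minus strand: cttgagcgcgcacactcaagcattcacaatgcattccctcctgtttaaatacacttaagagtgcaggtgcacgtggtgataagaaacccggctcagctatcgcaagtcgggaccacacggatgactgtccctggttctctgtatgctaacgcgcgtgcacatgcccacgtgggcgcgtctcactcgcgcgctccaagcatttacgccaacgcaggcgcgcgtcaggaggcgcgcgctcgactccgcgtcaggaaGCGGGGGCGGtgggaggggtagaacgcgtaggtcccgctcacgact
Grin2c, chr11:115267194-115267493, minus strand: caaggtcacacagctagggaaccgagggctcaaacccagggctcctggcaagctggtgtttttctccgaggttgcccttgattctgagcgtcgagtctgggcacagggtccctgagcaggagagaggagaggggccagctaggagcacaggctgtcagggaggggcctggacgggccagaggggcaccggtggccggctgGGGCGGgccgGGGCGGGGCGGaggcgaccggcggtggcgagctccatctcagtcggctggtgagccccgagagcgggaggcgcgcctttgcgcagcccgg
Grin1 holds 1 GC box, which overlaps its 1 Egr site, and Grin2c holds 3 GC boxes and 0 Egr sites. Over 32851 promoters of the same length, 35.7% hold the GC box, 2.91% the Egr site and 1.79% the cAMP response element. Grin2d and Grin3b have entries too, with 0 matches to the GC box or Egr site, and the cAMP response element had 0 matches in the 4. The Grin2d entry, chr7:45866632-45866931, lies inside the gene and not at its annotated start, 45878378, so it does not describe that start. Grin2a, Grin2b and Grin3a had no entry in the promoter set used here. A match describes letters only, since binding was not measured.

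Genes that work with the receptor were read from the same fit as a list of 47, of which 46 were tested. With edgeR 5 were lower and 0 higher in the Gas5 group, 10.9% of the list, beside 5.44% of all tested genes. Their median log2 fold change was -0.04, beside 0.02 over all tested genes. An unadjusted p under 0.05 was found for 13 of 46, against 21.4% of all tested genes. Of the 5 calls, Tbr1 alone remained when GFP B or GFP C was left out, and 0 remained under a cortical marker score covariate. Calls over all tested genes, 955 in the main fit, were 115 without GFP B, 107 without GFP C and 0 with that covariate.

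**Figure D5:**
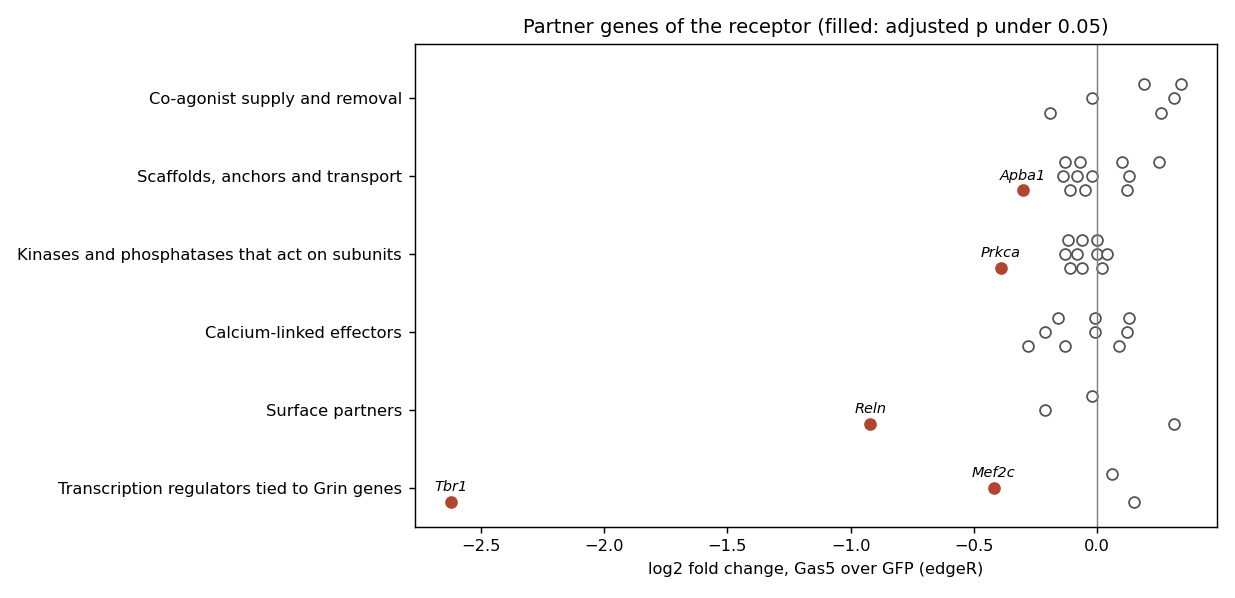
Log2 fold change, Gas5 over GFP, of 46 tested partner genes by role, with 1 point per gene and filled points for an edgeR adjusted p under 0.05. The 5 filled points, Apba1, Prkca, Reln, Mef2c and Tbr1, all lie below 0, and the highest open point is Slc1a4, at 0.34.

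Among enzymes and transporters of the co-agonists, 0 of 6 tested genes were called by edgeR, beside 5.44% of all tested genes. Their median log2 fold change was 0.23, and 1 gene had an unadjusted p under 0.05, against 21.4% of all tested genes. That gene was Slc1a4, a transporter of serine and other neutral amino acids, called by DESeq2, by edgeR without the low-count filter and by edgeR with a replicate block, at 56.5, 46.1 and 45.2 CPM in Gas5 A, B and C, compared with 41.4, 34.6 and 40.6 CPM in GFP A, B and C. The groups did not overlap, at a difference of 0.34 ± 0.0992 (standard error) on the log2 scale and an edgeR adjusted p of 0.0894. Slc6a9, the glial glycine transporter gene, was the 1 member not tested, with 7 counts in all libraries together, and other genes cover 98.1% of its span.

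Among 12 scaffold, anchor and transport genes edgeR called 1 lower and 0 higher. Among 11 kinases and phosphatases that act on the subunits it also called 1 lower and 0 higher. Over all tested genes 3.96% were called lower and 1.48% higher. Apba1, an adaptor of the complex that carries GluN2B along dendrites, had 183, 196 and 197 CPM in Gas5 A, B and C, against 222, 243 and 246 CPM in GFP A, B and C. This was a difference of -0.30 ± 0.0569 (standard error) on the log2 scale, and the edgeR adjusted p was 0.0237. Prkca, a protein kinase C, had 334, 367 and 356 CPM in Gas5 A, B and C, against 421, 481 and 484 CPM in GFP A, B and C. That was 1.31-fold lower, with an edgeR adjusted p of 0.0188. The anchoring scaffold Dlg4, known as PSD-95, was not called, at -0.08 on the log2 scale (edgeR adjusted p = 0.421).

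Among 9 calcium-linked effectors 0 were called by edgeR, beside 5.44% of all tested genes. An unadjusted p under 0.05 was found for 3, against 21.4% of all tested genes. The one of smallest p was Kalrn, an exchange factor that shapes dendritic spines, called by DESeq2, by edgeR without the low-count filter and by edgeR with a replicate block, but not by limma-voom. It had 1153, 1325 and 1326 CPM in Gas5 A, B and C, compared with 1445, 1600 and 1570 CPM in GFP A, B and C, without overlap, and an edgeR adjusted p of 0.0787. Among 4 surface partners edgeR called 1 lower and 0 higher, beside 3.96% and 1.48% of all tested genes. It was Reln, which encodes the secreted protein reelin that acts on the receptor through lipoprotein receptors. Reln had 102, 146 and 129 CPM in Gas5 A, B and C, against 181, 274 and 261 CPM in GFP A, B and C, a log2 fold change of -0.92 with an edgeR adjusted p of 0.0219. That p was 0.0557 with robust dispersion and 0.0522 without Gas5 C.

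Of 4 transcription regulators tied to Grin genes, edgeR called 2 lower and 0 higher, beside 3.96% and 1.48% of all tested genes. Tbr1, a cortical factor known to act on Grin2b, fell to 2.23, 3.88 and 6.04 CPM in Gas5 A, B and C, against 17.9, 26.9 and 29.8 CPM in GFP A, B and C, which was 6.14-fold lower, with an edgeR adjusted p of 0.00642. Tbr1 is also 1 of the 11 cortical markers, so this call is not separate from the score. Mef2c, an activity-regulated factor of neurons, had 176, 210 and 208 CPM in Gas5 A, B and C, against 252, 262 and 282 CPM in GFP A, B and C, at -0.42 on the log2 scale (edgeR adjusted p = 0.0222). Rest, a repressor of neuronal genes, Grin1 and Grin2b included, was not called, at a log2 fold change of 0.15. Without GFP B the edgeR adjusted p of Apba1, Prkca, Reln and Mef2c lay between 0.0929 and 0.121, and without GFP C between 0.103 and 0.123.

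Likeness to other genes was taken as the root mean square difference between centred log2 CPM over the 6 libraries, among 12322 candidate genes, and describes these libraries only. Nearest to Grin1 were Plec and Oscar, at 0.0135 and 0.0188, with Gas5 A lowest in both. Dab1 and Gdpd5 were nearest to Grin2a, at 0.0340 and 0.0370, and Gucy1a2 and Abca2 to Grin2b, at 0.0157 and 0.0174. For Grin2c they were Kctd17 and Cpm, at 0.0451 and 0.0461, for Grin2d Zfp488 and Neu1, at 0.0361 and 0.0479, and for Grin3a Wdr1 and Sco1, at 0.0224 and 0.0248. Ntrk2 and Cntn5 were nearest to the sparsely counted Grin3b, at 0.0468 and 0.0507. Among the members themselves, the closest pairs were Grin1 with Grin2b, at 0.0878, and Grin2a with Grin2c, at 0.0891, and the farthest was Grin2a with Grin3a, at 0.342.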

How the data were processed

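The authors deposited whole-number read counts for each gene, without normalization, over the whole gene span per the file headers. Build GRCm38.p6 is named in the submitters' processing notes, as are the aligner STAR 2.7.0 and the counter featureCounts 1.5.0-p3, with Trim Galore 0.4.4, edgeR 3.20.9 and bcl2fastq 1.8.4. Not given in the sources used here are the annotation release, the strand setting and how reads on more than 1 gene were treated. RNA was ribosome-depleted total RNA in strand-marking libraries, per the labels' protocols. All 7 gene spans matched GENCODE M21. The coding stretch of 2 members is not reported here.

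Counts were analysed with R 4.3.3, edgeR 4.0.16, limma 3.58.1 and DESeq2 1.42.0. The default filter of edgeR kept 17563 genes, libraries were scaled by TMM, and the 6 libraries were compared, Gas5 minus GFP, by the quasi-likelihood F-test, 2-sided, with Benjamini-Hochberg adjustment over all tested genes. Standard errors are the absolute log2 fold change over the square root of F. Log2 CPM uses a pseudocount of 0.5. Libraries within a group were distinct, at 4.82 to 23.3 chi-square units per degree of freedom.

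Named genes are the 7 members, Gas5, the called partners with the partner of smallest p in each role, and for each member the 2 nearest genes whose mean log2 CPM reached 1. Vip, Gad1, Aspa, the markers at 0, Dlg4, Rest and Slc6a9 were named after their values were seen. So were Cux2, Rorb, Lamp5, Aqp4, Slc1a2, Slc4a4, Slc1a3, Aldh1l1, Gja1 and the endothelial markers. Members and lists were chosen with earlier results of these data known. The test was checked on simulated counts. The 15 alternatives were scaling, filter, test, dispersion, replicate block, cortical marker score and leaving out each library.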

Additional observations from a re-analysis of the deposited data

How the results depend on the processing

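Of 105 values of the 7 subunit genes under 15 alternatives, 96 kept their direction and side of the threshold, 3 became calls and 6 changed sign. The subunit genes called numbered 1 with DESeq2 and 1 without an expression filter, Grin2c in both, and 0 to 1 when 1 library was left out. A covariate for the cortical marker score changed the sign of Grin1 (0.22), Grin2a (0.46), Grin2b (0.20), Grin2c (0.24) and Grin3a (-0.36), and leaving out Gas5 A that of Grin3a (-0.073, with up to 0.11 when another library was left out). That covariate left 0 partner genes called by edgeR, with 1 at an unadjusted p under 0.05, and 0 of all tested genes, with 497 at that level. It gave Gas5 0.40 with an adjusted p of 0.996. Leaving out 1 library gave Gas5 0.33 to 0.42. Partner genes called were 8 with DESeq2, 8 without the filter and 1 to 6 with 1 library left out, the 1 without GFP B and without GFP C. Over all tested genes there were 1658 calls without the filter, 1491 with DESeq2 and 107 to 847 with 1 library left out, against 955. The cause of these changes was not tested. The labels do not say whether the letters pair the samples. Same-letter deviations correlated at 0.164 for A, 0.179 for B and -0.0936 for C, and A and B but not C correlated best with their own letter, so the block was kept as an alternative. The replicate block gave 1438 calls over all genes, 0 subunit genes and 7 partner genes, adding Kalrn (adjusted p 0.0283) and Slc1a4 (0.0238) to the 5. At 23 to 58 counts per library, depth limits Grin3b.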
